A study of Mus musculus with 9 samples.

Results

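The adipocyte commitment factors described here are 10 transcription factor genes known to promote or restrain the formation of fat cells, outside the C/EBP, KLF and nuclear receptor families: Ebf1, Ebf2, Zfp423, Zfp467, Gata2, Gata6, Stat5a, Stat5b, Foxo1 and Tcf21. They were taken by gene symbol from the 19094 genes listed in the data. Of the 10 genes, 9 had a row in each of the 9 samples, and Tcf21, a factor of white fat progenitors, had no row in any of them, so that no value is given for it. The RNA came from the mouse line 3T3-L1, fibroblasts that store lipid once induced, with 3 samples at each of 3 stages. Day 0 samples were preadipocytes before induction. Day 4 samples had received an induction medium with dexamethasone, IBMX and insulin and then a maintenance medium with insulin, and day 8 samples had stayed longer in the maintenance medium. All stages come from the same established line, the cells of a stage were pooled and their RNA was mixed, and nothing states that the 3 samples of a stage were separate cultures, so the p-values measure only the spread between these samples, which may be technical. Day 4 against day 0 is called the early phase, day 8 against day 4 the late phase, and day 8 against day 0 the whole process.

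Commitment factors act before and beside the master regulators of the fat cell. EBF factors and their zinc finger partner ZFP423 open the way to the adipocyte programme, GATA2 and its relative GATA3 hold preadipocytes back, and STAT5 proteins carry the signal of growth hormone and prolactin from the membrane to the nucleus. FOXO1 is kept out of the nucleus when insulin activates AKT, so its activity is set by protein location as well as by the amount of its RNA, which is all that was measured here.

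Expected counts summed to between 18216114 and 20452144 in a sample. The label of the samples was checked against marker genes. All 10 markers of mature adipocytes passed the test as higher in the early phase, and their FPKM (fragments scaled to transcript length and library depth), summed over the list, ran from 144.1 to 149.1 in day 0 samples, from 5938 to 8485 in day 4 samples and from 8812 to 9625 in day 8 samples, with Fabp4, a fatty acid binding protein, as the most abundant. Markers of preadipocytes and fibroblasts, with Vim as the most abundant over all samples, summed to between 8196 and 8594 FPKM at day 0, between 5220 and 5753 at day 4 and between 7240 and 7423 at day 8. The members of this list differed, as Vim was at 2540, 2050 and 1420 FPKM on average at the 3 days, while Col1a2 was the most abundant at day 8 with 2510 FPKM and Ly6a and Fn1 were called lower over the whole process (log2 fold change -1.99 and -1.79, edgeR). Because the samples are bulk RNA, fewer cells of a type and less RNA per cell cannot be told apart. The sample labels describe tissue of dorsal root ganglia in their extraction text, but the 12 markers of sensory neurons and Schwann cells summed to at most 4.81 FPKM in any sample, and 8 of them stayed under 0.5 FPKM in all samples, while Pou4f1 had no row. Markers of endothelium summed to at most 0.57 FPKM, those of macrophages and blood to at most 8.98 FPKM with Cd14 as the most abundant, and those of muscle to at most 10.54 FPKM with Des as the most abundant and Myod1 without a row. In the mesothelium list the sum was between 2.78 and 3.99 FPKM at day 0 and between 9.61 and 13 at day 8, of which Krt19 made up 10.4 ± 1.78 FPKM (SD, n = 3), while Msln went from 2.71 to 0.647 FPKM on average between those days, with Wt1, Upk3b, Lrrn4 and Krt8 under 0.5 FPKM in every sample. Osteoblast markers summed to between 244.1 and 328.8 FPKM at day 0 and between 51.18 and 124.3 later, with Spp1 as the most abundant and Sp7, Ibsp and Dlx5 under 0.5 FPKM in every sample. Within that list Spp1 went from 260 to 44.6 FPKM in the early phase, and Alpl was called higher in both phases (0.0567, 0.777 and 3.64 FPKM at the 3 days). Runx2 was at 18.1, 10.2 and 16.1 FPKM. Its log2 fold change was -0.76 early (adjusted p = 1.5e-08, edgeR), 0.68 late (adjusted p = 2.3e-07) and -0.09 over the whole process (adjusted p = 0.21). These lists moved between the days along with the commitment factors, and their part in the changes below was not tested.

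A gene was called when its adjusted p was under 0.05 over all 13154 tested genes (edgeR's quasi-likelihood test with Benjamini-Hochberg adjustment) and its fold change was above 2. All 9 measured commitment factors passed the filter on low counts. In the early phase 2 of them were called higher, Ebf2 and Foxo1, and 1 lower, Gata2, where 9.77% of all tested genes were called higher and 7.98% lower. In the late phase Gata2 alone was called, as higher, against 4.24% of all tested genes called higher and 2.81% called lower. Over the whole process Ebf2, Zfp423, Gata6 and Foxo1 were called higher and Gata2 lower, against 10.3% and 7.70% of all tested genes. At an adjusted p under 0.05 with no demand on the fold, 7 factors were higher and 1 lower in the early phase (35.5% and 33.7% of all tested genes), 6 higher and 1 lower in the late phase (22.5% and 22.7%), and 8 higher and 1 lower over the whole process (34.8% and 36.2%). The CPM values (counts scaled to library size) of the days did not overlap for 8 of the 9 factors in the early phase, 7 in the late phase and 9 over the whole process, against 72.3%, 54.5% and 75.5% of all tested genes. Complete separation of the days was therefore the usual state of a gene in these data. The median log2 fold change of the 9 factors was 0.63, 0.52 and 0.96 in the early phase, the late phase and the whole process, while that of all tested genes was 0.016, -0.008 and -0.018. The early and whole comparisons share the day 0 samples, and the late comparison shares samples with both.

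**Figure D1:**
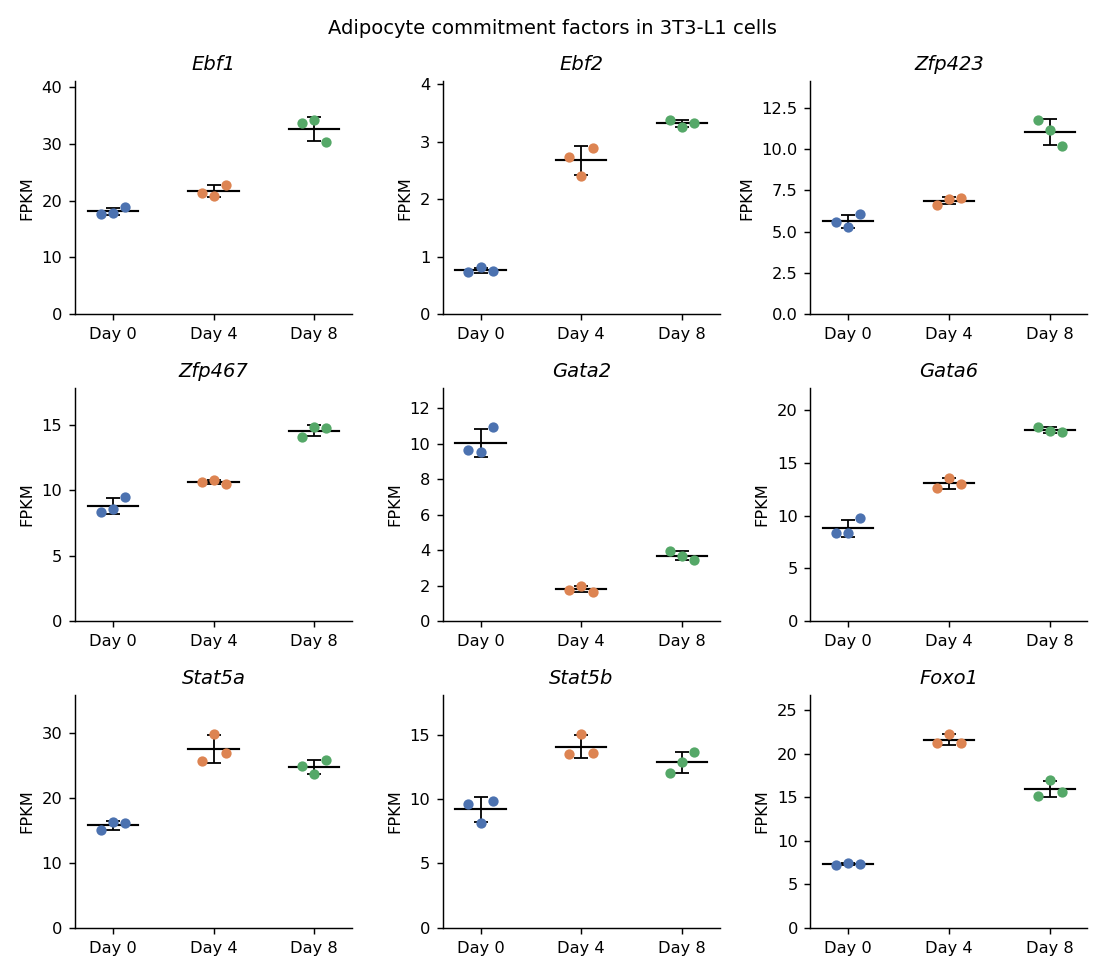
FPKM of the 9 measured commitment factors in each sample, with a panel per gene, the day on the horizontal axis, points for the 3 samples of a day, and bars for mean ± SD. Gata2 is the only panel in which day 0 lies above both other days, and Foxo1 is highest at day 4 with no overlap between days.

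Ebf1, which encodes an early B cell factor that acts in fat cell precursors and mature adipocytes alike, had the most abundant RNA at day 0. Ebf1 had FPKM values of 17.63, 17.73 and 18.87 at day 0, 21.34, 20.78 and 22.76 at day 4, and 33.56, 34.17 and 30.25 at day 8. Each day lay above the one before without overlap, and the rise in the late phase (log2 fold change 0.64, SE 0.05, adjusted p = 7e-08, edgeR) was larger than that in the early phase (0.32, SE 0.05, adjusted p = 6.3e-05), although the difference between the phases was not tested. Over the whole process the log2 fold change was 0.96 (SE 0.05, adjusted p = 1.3e-10, edgeR), just under the fold needed for a call, and it came to 1.03 without Day 8 replicate 3.

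Ebf2, the relative of Ebf1 that marks brown and beige fat precursors, behaved in another way. Its FPKM was 0.74, 0.82 and 0.75 at day 0, 2.73, 2.4 and 2.9 at day 4, and 3.38, 3.25 and 3.33 at day 8, with expected counts of 83 to 86 per day 0 sample, 273 to 319 per day 4 sample and 367 to 381 per day 8 sample. It was the least abundant factor at day 0 and again at day 8, yet it had the largest rise of the 9. The early rise was 3.64-fold (log2 fold change 1.87, SE 0.1, adjusted p = 9.7e-11, edgeR), and 585 of the 13154 tested genes rose more. In the late phase it rose by 0.36 on the log2 scale (SE 0.08, adjusted p = 0.0023, edgeR), and over the whole process 4.67-fold (log2 fold change 2.22, SE 0.1, adjusted p = 8.3e-12, edgeR). With limma on log2(FPKM + 1), a scale that shrinks the changes of low genes, the log2 values were 1.05 early and 1.29 over the whole process, both still called. The early rise of Foxo1 was larger on that scale, at 1.44. The course nearest to that of Ebf2 was that of Scp2, a lipid carrier protein, with a root mean square difference of 0.104 in centred log2 CPM over the 9 samples. Of the 50-base stretches of Ebf2 transcripts, 4.82% lie on the strand opposite a transcript of Gm10860, and whether the counting used strand is not stated.

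The FPKM ratio within the EBF pair differed between the days. In the 3 day 0 samples the FPKM of Ebf1 was 23.8, 21.6 and 25.2 times that of Ebf2, at day 4 it was 7.82, 8.66 and 7.85 times, and at day 8 9.93, 10.5 and 9.08 times. The ratio was thus lower in every later sample than in any day 0 sample. The log2 ratio of FPKM (mean ± SD, n = 3) was 4.55 ± 0.11 on day 0, 3.02 ± 0.08 on day 4 and 3.3 ± 0.11 on day 8 ( exact permutation test across the 3 days, p = 0.0036, the smallest this design allows, adjusted p = 0.0054 over 3 pairs). From day 0 to day 8 the log2 ratio changed by -1.26, and by -0.47 where 1 was added to each FPKM (exact test, adjusted p = 0.0054).

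Zfp423 encodes a zinc finger protein that binds both EBF factors and SMADs and marks committed preadipocytes. Its RNA rose more in the late phase than in the early phase, a difference that was not tested. Zfp423 stood at 5.56, 5.29 and 6.07 FPKM at day 0, 6.63, 6.97 and 7.04 at day 4, and 11.76, 11.14 and 10.21 at day 8. The days did not overlap, and day 8 was well above both earlier days. The log2 fold change was 0.33 early (SE 0.07, adjusted p = 0.001, edgeR), 0.72 late (SE 0.07, adjusted p = 4.5e-07) and 1.05 (SE 0.07, adjusted p = 1.7e-09) over the whole process. The whole-process call rests on the 2-fold limit, since the value was 0.94 with library size alone as the scaling, 0.86 with limma on log2(FPKM + 1), 0.96 with limma on log2(FPKM + 0.1) and 0.99 without Day 0 replicate 2.

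Among the 11466 genes whose log2 CPM averaged 1 or more, the one whose centred log2 CPM over the 9 samples lay closest to that of Zfp423 was Ebf1, with a root mean square difference of 0.0725, and the next was Nhsl2 with 0.0924. Because these 2 factors had the most similar course, the 250 bases before a start site of each are printed from RefSeq (GRCm38.p6), Ebf1 at chr11:44619978-44620227 on the + strand, which lies in an intron of Ebf1, and Zfp423 at chr8:87959596-87959845 on the - strand, which overlaps no annotated gene. Ebf1 has a further start site whose window lies within an annotated exon and is not printed. Neither printed window held any of the 5 motifs searched, so no base is in capitals.
Ebf1: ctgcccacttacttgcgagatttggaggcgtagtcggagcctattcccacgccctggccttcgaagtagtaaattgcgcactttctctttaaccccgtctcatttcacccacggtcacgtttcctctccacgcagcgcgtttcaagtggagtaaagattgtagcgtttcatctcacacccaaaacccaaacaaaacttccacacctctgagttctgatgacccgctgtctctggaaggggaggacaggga
Zfp423: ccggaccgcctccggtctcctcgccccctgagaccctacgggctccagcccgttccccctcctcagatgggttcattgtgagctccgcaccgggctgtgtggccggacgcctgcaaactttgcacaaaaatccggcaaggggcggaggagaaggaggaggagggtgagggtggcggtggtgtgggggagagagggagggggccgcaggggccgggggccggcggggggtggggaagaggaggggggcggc

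The composition of the windows differed, with 52% G and C in the Ebf1 window and 71.6% in the Zfp423 window. Motifs were searched on both strands, and their shares refer to 32851 RefSeq windows of the same length. The EBF motif, a palindrome matched in Foxo1 as TCCCGAGGGA with its 2 central bases left free, occurred in 0.779% of these windows. The STAT5 motif TTCNNNGAA occurred in 7.02% and the core motif for GATA proteins, GATAA, in 22.6%. For FOXO proteins the letters were GTAAACA, found in 3.17%, and the E-box searched for TCF21 was CAGCTG, found in 13%. No motif holds another. In the 13 windows of the 8 factors that have an entry, EBF was matched in 1 (Foxo1), GATA in 2 (Tcf21 and the other Ebf1 window), the E-box in 2 (Stat5a and Stat5b), and STAT5 and FOXO in 0. A match is a description of letters only.

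Zfp467, a zinc finger factor that favours fat over bone formation in marrow stromal cells, gave a result that depends on the unit. Expected counts were 572.46, 493.19 and 574.41 at day 0, 582.42, 542.01 and 498.8 at day 4, and 798.9, 788.94 and 804.81 at day 8. Days 0 and 4 overlapped and day 8 lay above both. The early log2 fold change was 0.02 (SE 0.06, 95% interval -0.1 to 0.15, adjusted p = 0.75, edgeR), that of the late phase 0.61 (SE 0.06, adjusted p = 8.5e-07) and that of the whole process 0.63 (SE 0.06, adjusted p = 1.6e-07).

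In FPKM the same gene was already higher at day 4. Zfp467 had 8.31, 8.56 and 9.48 FPKM at day 0, 10.62, 10.79 and 10.45 at day 4, and 14.1, 14.85 and 14.72 at day 8, so that days 0 and 4 no longer overlapped. With limma on log2(FPKM + 1) the early difference was 0.25 (adjusted p = 0.0019). The deposited length of a gene, by which FPKM is scaled, is an average over its transcripts weighted by their estimated abundance, and for Zfp467 it was 3354.61, 3149.34 and 2952.48 bases at day 0, 2709.61, 2457.5 and 2421.05 at day 4 and 2802.14, 2622.54 and 2739.62 at day 8. Every day 0 sample had a longer average than any later sample. The lengths were looked at after the values were seen, so a test of them across the days is not used here and the difference is given as a description. Of the 4 Zfp467 transcripts named in the data, GENCODE M21 gives lengths of 3619, 3266, 3163 and 599 bases, and the deposited data give no value per transcript.

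**Figure D2:**
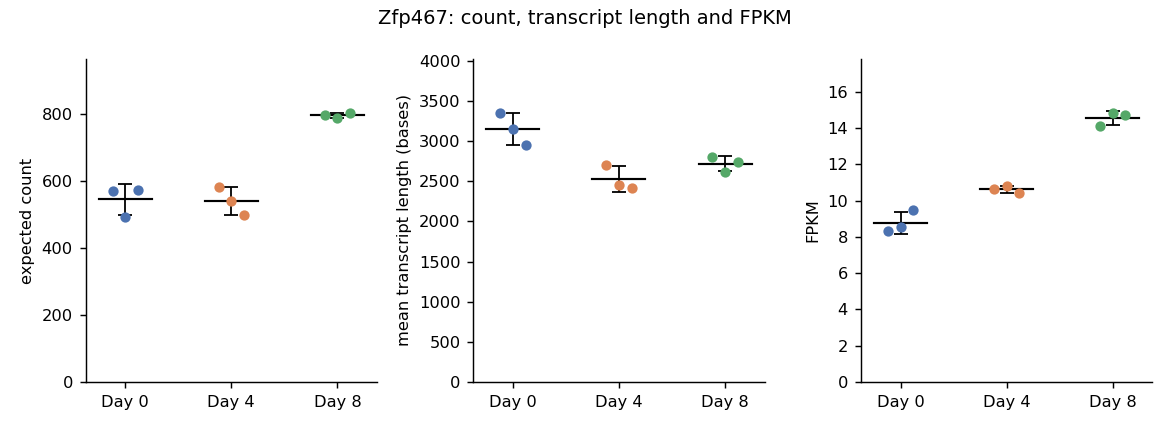
Expected count, abundance-weighted transcript length in bases and FPKM of Zfp467 in each sample by day, with points for samples and bars for mean ± SD (n = 3). Counts of days 0 and 4 overlap, while the length is greatest at day 0 and the FPKM is lowest there.

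Gata2, which encodes a factor that blocks the step from preadipocyte to adipocyte, was the only factor that was lower after induction. Its FPKM was 9.65, 9.51 and 10.95 at day 0, 1.76, 1.98 and 1.64 at day 4, and 3.94, 3.64 and 3.45 at day 8. Day 4 was lowest and day 8 lay between the other days, with no overlap between any of them. In the early phase Gata2 was 5.34-fold lower (log2 fold change -2.42, SE 0.1, adjusted p = 1.7e-12, edgeR), and 223 of the 13154 tested genes fell more. It then rose 2.12-fold in the late phase (log2 fold change 1.08, SE 0.1, adjusted p = 4e-07, edgeR), the only call of the 9 factors in that phase, and was not past the 2-fold limit with limma on log2(FPKM + 1), where the value was 0.74. At day 8 it was still 2.53-fold lower than at day 0 (log2 fold change -1.34, SE 0.09, adjusted p = 7.3e-10, edgeR).

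Genes with the course closest to that of Gata2 were Pcdh18, a protocadherin, and Il13ra1, a receptor subunit for interleukin signals, with root mean square differences of 0.124 and 0.125 on the log2 CPM scale over 9 samples. The 250 bases before the upstream Gata2 start site, at chr6:88193641-88193890 on the + strand of GRCm38.p6, overlap no annotated gene. They are shown because Gata2 had the largest fall, and they hold none of the 5 motifs, GATAA included.
Gata2: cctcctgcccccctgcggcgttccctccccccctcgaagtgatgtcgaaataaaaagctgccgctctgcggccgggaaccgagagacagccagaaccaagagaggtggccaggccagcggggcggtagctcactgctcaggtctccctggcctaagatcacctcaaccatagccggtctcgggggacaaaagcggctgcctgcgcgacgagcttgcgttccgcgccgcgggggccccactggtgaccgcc

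Gata6, a GATA factor best known from endoderm and heart development, went the other way. Gata6 was measured at 8.33, 8.4 and 9.75 FPKM at day 0, 12.62, 13.6 and 13.03 at day 4, and 18.46, 18.02 and 17.95 at day 8. Each day lay above the one before. The early log2 fold change was 0.63 (SE 0.07, adjusted p = 3.4e-07, edgeR), that of the late phase 0.52 (SE 0.06, adjusted p = 5.4e-06) and that of the whole process 1.15 (SE 0.07, adjusted p = 1.5e-10), the last of which was 0.97 with limma on log2(FPKM + 1). Its nearest courses were those of Acaa1a, a peroxisomal thiolase (0.0567), and Loxl2, a lysyl oxidase (0.065).

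At day 0 the FPKM of Gata2 was 1.16, 1.13 and 1.12 times that of Gata6, at day 4 it was 0.139, 0.146 and 0.126 times, and at day 8 0.213, 0.202 and 0.192 times. Near parity before induction thus gave way to a large excess of Gata6. The log2 ratio of FPKM (mean ± SD, n = 3) was 0.19 ± 0.02 on day 0, -2.87 ± 0.11 on day 4 and -2.31 ± 0.08 on day 8 ( exact permutation test across days, p = 0.0036, the smallest this design allows, adjusted p = 0.0054).

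**Figure D3:**
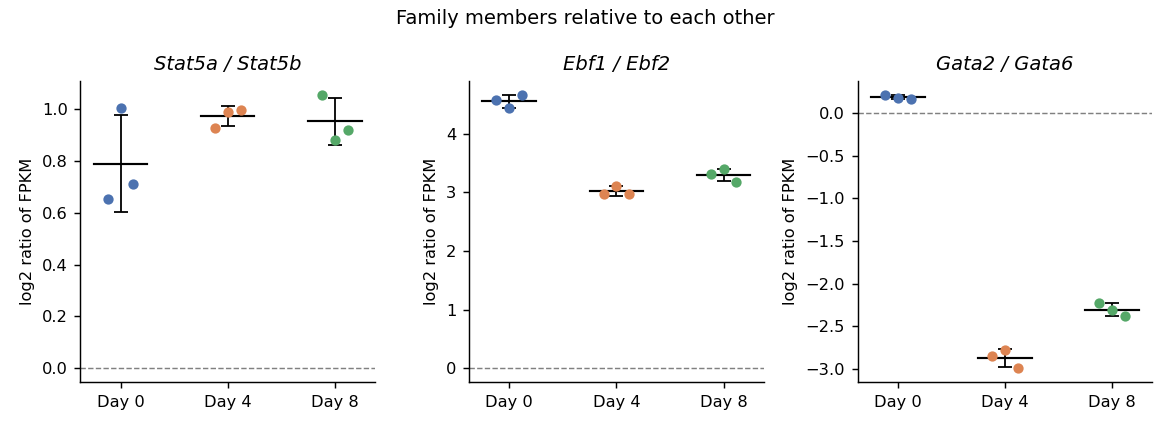
Log2 ratio of FPKM within each pair of relatives, Stat5a to Stat5b, Ebf1 to Ebf2 and Gata2 to Gata6, for each sample by day, with bars for mean ± SD (n = 3) and a dashed line at equal FPKM. The Gata2 to Gata6 ratio drops from 0.19 to -2.87 and the Ebf1 to Ebf2 ratio from 4.55 to 3.02 between days 0 and 4, while the day ranges of Stat5a to Stat5b overlap.

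Both STAT5 genes, whose proteins are activated by JAK2 below the growth hormone and prolactin receptors, rose early and then stayed near the day 4 level. Stat5a had 15.07, 16.28 and 16.21 FPKM at day 0, 25.75, 29.99 and 27.06 at day 4, and 24.99, 23.68 and 25.84 at day 8. Stat5b had 9.59, 8.12 and 9.89 FPKM at day 0, 13.53, 15.09 and 13.55 at day 4, and 12.02, 12.84 and 13.67 at day 8. For both genes day 0 lay below the other days and days 4 and 8 overlapped. The early log2 fold change was 0.86 for Stat5a (SE 0.06, adjusted p = 2e-09, edgeR) and 0.68 for Stat5b (SE 0.08, adjusted p = 9.6e-07), both under the fold needed for a call. In the late phase the values were -0.11 for Stat5a (95% interval -0.22 to 0, adjusted p = 0.13, edgeR) and -0.09 for Stat5b (95% interval -0.23 to 0.06, adjusted p = 0.38).

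The FPKM of Stat5a was between 1.57 and 2.08 times that of Stat5b in every sample. The log2 ratio (mean ± SD, n = 3) was 0.79 ± 0.19 on day 0, 0.97 ± 0.04 on day 4 and 0.95 ± 0.09 on day 8, and the days did not differ beyond the spread between samples (exact permutation test, p = 0.23, adjusted p = 0.23). One day 0 sample set this, since without Day 0 replicate 2, whose ratio was 2, the adjusted p of the exact test was 0.029. Stat5a and Stat5b are neighbours on chromosome 11 on opposite strands, and 8.21% of the 50-base stretches of Stat5a transcripts also occur in Stat5b, as do 11% of those of Stat5b in Stat5a. Reads from such stretches could be split between them. Summed over both genes the counts rose by 0.78 on the log2 scale in the early phase (SE 0.06, adjusted p = 5.3e-09, edgeR) and changed by -0.1 in the late phase (SE 0.06, adjusted p = 0.17).

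Foxo1, the forkhead factor under insulin control, peaked at day 4. The FPKM of Foxo1 was 7.22, 7.49 and 7.33 at day 0, 21.23, 22.32 and 21.22 at day 4, and 15.18, 17.02 and 15.65 at day 8. No 2 days overlapped. The early rise was 3.08-fold (log2 fold change 1.62, SE 0.05, adjusted p = 2.4e-13, edgeR), with 714 of 13154 tested genes rising more, followed by a fall in the late phase that passed the test but not the 2-fold limit (log2 fold change -0.39, SE 0.05, adjusted p = 1.1e-05). Day 8 remained 2.35-fold above day 0 (log2 fold change 1.23, SE 0.05, adjusted p = 7.8e-12, edgeR). The courses nearest to that of Foxo1 were those of Ahcyl2 (0.0483) and Cav1, the caveolin of the adipocyte membrane (0.058). Of the stretches of Foxo1, 6.77% lie opposite a transcript of Gm20402.

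Foxo1 is the factor whose start-site window carries the EBF motif, so its sequence is shown with that match in capitals. The window lies at chr3:52268087-52268336 on the + strand of GRCm38.p6, its last base is the only one inside an annotated exon, and the match begins 92 bases before the start site.
Foxo1: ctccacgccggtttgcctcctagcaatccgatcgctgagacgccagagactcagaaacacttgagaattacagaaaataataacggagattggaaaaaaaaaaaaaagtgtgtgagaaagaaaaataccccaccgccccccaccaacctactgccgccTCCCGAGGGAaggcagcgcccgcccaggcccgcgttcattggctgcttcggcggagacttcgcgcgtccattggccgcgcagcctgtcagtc

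Ranked by mean FPKM, which is scaled to length, Ebf1 led at day 0 with 18.08 ± 0.6889, Stat5a at day 4 with 27.6 ± 2.171 and Ebf1 again on day 8 with 32.66 ± 2.109 (SD, n = 3). At day 0 the order went on with Stat5a, Gata2, Stat5b, Gata6, Zfp467, Foxo1, Zfp423 and Ebf2, and the samples of Gata2 overlapped with those of Stat5b, Stat5b with Gata6 and Gata6 with Zfp467. At day 4 the order was Stat5a, Ebf1, Foxo1, Stat5b, Gata6, Zfp467, Zfp423, Ebf2 and Gata2, with overlap between Ebf1 and Foxo1 and between Stat5b and Gata6. Gata2 had thus moved from the third place to the last. At day 8 the order was Ebf1, Stat5a, Gata6, Foxo1, Zfp467, Stat5b, Zfp423, Gata2 and Ebf2, and no neighbours in it overlapped. Ebf1 stood above 75.5% of the listed genes at day 0 and above 85.3% at day 8, and Ebf2 above 34.5% and 45.7%.

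**Figure D4:**
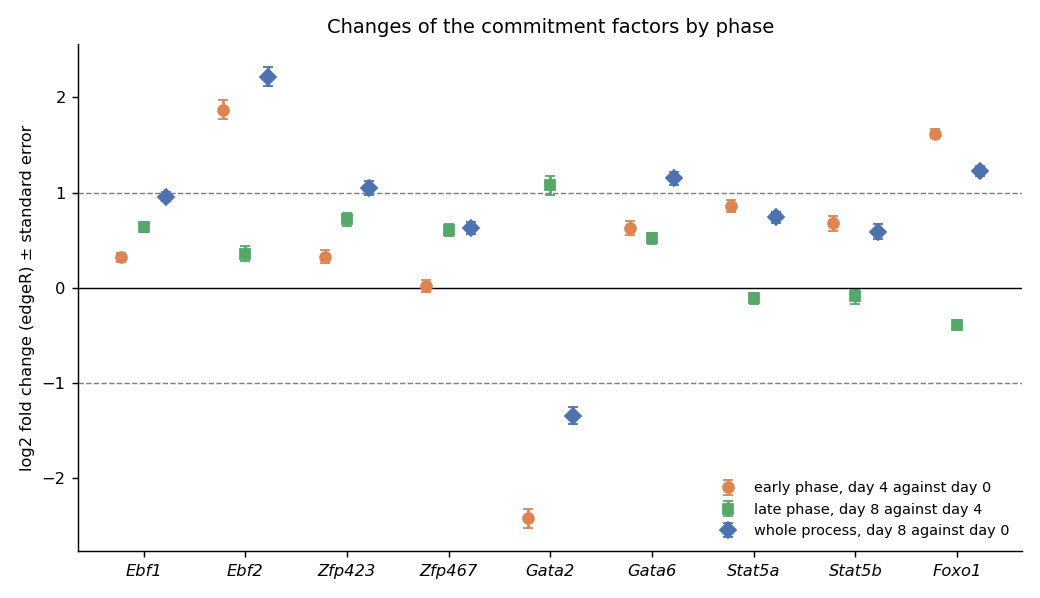
Log2 fold change (edgeR) ± standard error of each measured factor in the early phase, the late phase and the whole process, with dashed lines at the 2-fold limit. Ebf2 and Foxo1 lie above the limit and Gata2 below it in the early phase, and only Gata2 passes it in the late phase.

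Among 20 relatives and direct cofactors of these genes, 13 were tested. In the early phase 1 was called higher and 4 lower, against 9.77% and 7.98% of all tested genes. Late calls were 1 each way (4.24% and 2.81%), and whole-process calls 1 higher and 2 lower (10.3% and 7.70%). The early median of these 13 genes was -0.66 on the log2 scale, opposite in sign to that of the 9 factors. Gata3, which restrains fat cell formation as Gata2 does, fell from 3.61 ± 0.114 to 0.943 ± 0.116 FPKM in the early phase (log2 fold change -1.87, SE 0.12, adjusted p = 8.1e-10, edgeR) and was at 1.7 ± 0.142 FPKM at day 8. Ebf3, the third EBF gene measured, went from 11.4 ± 0.698 to 5.53 ± 0.26 FPKM (log2 fold change -0.99, adjusted p = 7e-10), against the direction of Ebf1 and Ebf2. Zfp521, which opposes ZFP423 and EBF1, fell in both phases, from 24.7 ± 0.928 FPKM at day 0 to 20.2 ± 2.1 at day 4 and 13.2 ± 0.603 at day 8 (log2 fold change over the whole process -0.8, SE 0.07, adjusted p = 2.1e-08, edgeR). The GATA cofactors Zfpm1 and Zfpm2 fell early with log2 fold changes of -0.66 and -0.92 (adjusted p = 2.6e-08 and 4.5e-09, edgeR). Zfpm1 then rose by 0.74 in the late phase (adjusted p = 2.7e-08, edgeR) and had 0.08 over the whole process (adjusted p = 0.22). For Zfpm2 the late value was 0.26 (adjusted p = 0.0068, edgeR) and that of the whole process -0.66 (adjusted p = 2.1e-07).

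Relatives of STAT5 and FOXO1 moved in both directions. Stat2, which carries interferon signals, fell early with a log2 fold change of -2.21 (SE 0.13, adjusted p = 3.2e-10, edgeR), from 37.9 ± 9.84 to 7.82 ± 0.522 FPKM. Stat3 and Stat6 rose early by 0.21 and 0.22 on the log2 scale (adjusted p = 0.0017 and 0.00072). Foxo4 rose from 9.78 ± 0.59 to 13.7 ± 0.231 FPKM in the early phase (log2 fold change 0.56, adjusted p = 1.5e-06) and was at 12.3 ± 0.769 at day 8 (late log2 fold change -0.12, adjusted p = 0.16). Foxo6 fell from 5.74 ± 0.321 to 2.16 ± 0.321 FPKM and then rose to 11.9 ± 0.832 (log2 fold change -1.34 early and 2.5 late, adjusted p = 1.2e-08 and 1.2e-11), while Foxo3 was at 25.4 ± 0.416, 27.5 ± 4.03 and 13.5 ± 0.707 FPKM and passed the test in the late phase (log2 fold change -0.98, adjusted p = 1.2e-07) but not in the early phase (0.18, adjusted p = 0.058). Tcf23, a relative of Tcf21, was called in both phases but at no more than 0.177 FPKM on average at any day.

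Of 15 receptors, kinases and phosphatases around STAT5, 3 were called higher and 0 lower early (9.77% and 7.98% of all tested genes). Late calls were 0 higher and 1 lower (4.24% and 2.81%), and whole-process calls 2 higher and 1 lower (10.3% and 7.70%). The early median of the list was 0.18 on the log2 scale. At an adjusted p under 0.05 alone the early counts were 8 higher and 5 lower, against 35.5% and 33.7% of all tested genes. Prlr, the prolactin receptor, rose from 0.05 FPKM at day 0 to 1.19 ± 0.0208 at day 4 and 2.09 ± 0.191 at day 8 (early log2 fold change 4.83, SE 0.17, adjusted p = 5.8e-13, edgeR). Ghr, the growth hormone receptor, was abundant at all days, with 117 ± 9.59, 131 ± 5.23 and 142 ± 4.55 FPKM (early log2 fold change 0.35, SE 0.05, adjusted p = 1.2e-05). The kinase Jak2 fell slightly, from 11.2 ± 0.25 to 8.59 ± 0.424 FPKM (early log2 fold change -0.31, adjusted p = 0.00014). Lifr, a receptor for leukaemia inhibitory factor, and Ptpn6, a phosphatase, were the other early calls, with log2 fold changes of 1.05 and 1.31 (adjusted p = 9.2e-10 and 4.7e-07). The cytokine receptor subunit Csf2rb was the late call, at under 0.5 FPKM on average at each day.

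Known STAT5 target genes moved both ways. Of 11 tested, 3 were called higher and 3 lower in the early phase (9.77% and 7.98% of all tested genes). Late calls were 1 each way (4.24% and 2.81%), and whole-process calls 4 higher and 2 lower (10.3% and 7.70%). Igfals, which stabilises IGF1 in blood, rose from 0.323 ± 0.203 to 3.85 ± 0.749 FPKM early (log2 fold change 3.67, SE 0.25, adjusted p = 1.9e-09, edgeR), and Bcl6, a transcriptional repressor, from 2.93 ± 0.44 to 10.6 ± 0.902 FPKM (log2 fold change 1.92, adjusted p = 3.3e-11). Igf1 fell from 4.3 ± 0.589 to 1.67 ± 0.131 FPKM and then rose to 10.6 ± 0.825 (log2 fold change -1.3 early and 2.71 late, adjusted p = 7.8e-09 and 2.5e-12). Of the feedback inhibitors, Cish had log2 fold changes of 0 (early, SE 0.1, adjusted p = 0.97) and 0.46 (whole process, adjusted p = 0.00049), and in the same order Socs2 had -0.33 (adjusted p = 2.7e-05) and -1.02 (adjusted p = 4.9e-11, edgeR). Socs1 had -0.54 early and 0.78 late (adjusted p = 6.4e-05 and 3.1e-06, edgeR). Socs3, the late call lower, had 0.36 early and -1.01 late (adjusted p = 0.025 and 2e-05, edgeR).

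Upstream of FOXO1, the 19 genes of insulin signalling and FOXO1 modification held 1 early call each way (9.77% and 7.98% of all tested genes). They held 1 late call lower (2.81%) and 0 calls over the whole process (10.3% higher and 7.70% lower). At an adjusted p under 0.05 with no demand on the fold (edgeR), 5 were higher and 7 lower over the whole process, against 34.8% and 36.2% of all tested genes. Pik3r1, a regulatory subunit of PI3 kinase, was both the early call higher and the late call lower, with 18.3 ± 1.12, 57 ± 3.01 and 25.5 ± 0.971 FPKM (log2 fold change 1.7 early and -1.11 late, adjusted p = 1.6e-13 and 1.5e-10, edgeR). Over the whole process its log2 fold change was 0.59 (SE 0.06, adjusted p = 7.5e-08), under the fold needed for a call. Akt2, the AKT form of insulin action in fat, rose over the whole process by 0.72 on the log2 scale (SE 0.05, adjusted p = 1.4e-09, edgeR).

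The known targets of FOXO1, 20 of them tested, held 9 genes called higher and 2 lower early (9.77% and 7.98% of all tested genes). Late calls were 4 higher and 2 lower (4.24% and 2.81%), and whole-process calls 8 higher and 1 lower (10.3% and 7.70%). The medians of the list were 0.79, 0.03 and 0.72. Insr and Irs2 stand in this list and in the insulin signalling list. Pnpla2, the main triglyceride lipase, rose from 18.7 ± 0.71 to 506 ± 60.4 FPKM in the early phase (log2 fold change 4.82, SE 0.08, adjusted p = 1.1e-16, edgeR). Klf15 was at 0.02 ± 0.02 FPKM at day 0, 6.15 ± 0.841 at day 4 and 15.7 ± 1.12 at day 8, and its fold change is not given because no day 0 sample had more than 3 counts. Bnip3, a mitophagy receptor, rose early by 3 and late by 1.23 on the log2 scale (adjusted p = 1.2e-11 and 3.7e-07), and Pck1, an enzyme of glyceroneogenesis, rose mainly late, from 0.473 ± 0.192 FPKM at day 4 to 10.7 ± 0.389 at day 8. Not all targets rose, as the stress genes Gadd45a and Sesn2 fell early with log2 fold changes of -1.92 and -1.11 (adjusted p = 1.1e-12 and 6.6e-11), and Pdk4 rose early and fell late, from 6.49 ± 0.545 to 16.5 ± 1.64 and 4.12 ± 0.206 FPKM.

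In the BMP and SMAD pathway, in which ZFP423 acts, 18 of 23 genes were tested. Early calls were 1 higher and 7 lower, against 9.77% and 7.98% of all tested genes. Late calls were 2 higher and 1 lower (4.24% and 2.81%), and whole-process calls 1 higher and 6 lower (10.3% and 7.70%). The medians of the list were -0.5, -0.01 and -0.47. Grem1, a secreted BMP antagonist, fell from 165 ± 22.7 to 7.34 ± 1.79 FPKM in the early phase (log2 fold change -4.42, SE 0.12, adjusted p = 2.3e-14, edgeR). Id2 and Id3, inhibitors of DNA binding that BMP induces, fell early with log2 fold changes of -3.38 and -1.69 (SE 0.17 and 0.09, adjusted p = 3.2e-11 and 8e-11), and the inhibitory Smad6 and Smad7 with -1.58 and -2.39 (adjusted p = 2.7e-12 and 6.6e-12). Wisp2, whose protein can hold ZFP423 in the cytosol, fell from 23.4 ± 0.791 to 6.57 ± 0.57 FPKM and rose to 14.1 ± 1.09 at day 8 (log2 fold change -1.76 early and 1.15 late, adjusted p = 1.2e-11 and 1.8e-08, edgeR). The BMP ligands Bmp2, Bmp4, Bmp6 and Bmp7 did not pass the filter on low counts.

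**Figure D5:**
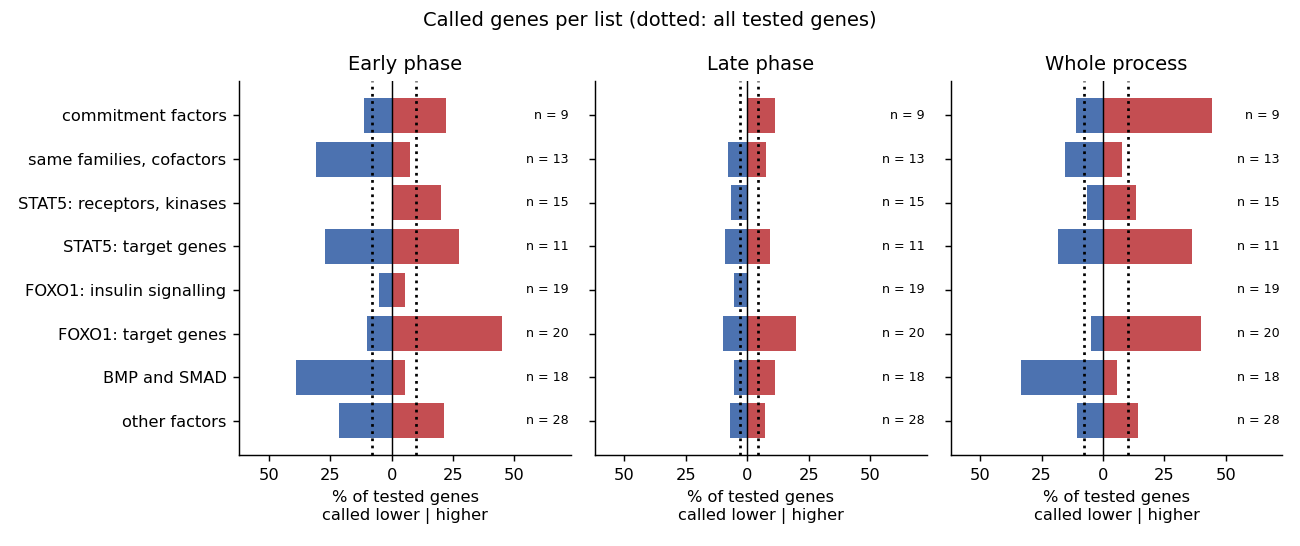
Share of the tested genes of the commitment factors and the 7 pathway and factor lists, without the cell type markers, called lower (left, blue) and higher (right, red) in the early phase, the late phase and the whole process, in percent, with n the number of tested genes and dotted lines at the shares of all 13154 tested genes. Of the lists drawn, the BMP and SMAD list reaches farthest to the left in the early phase, with 7 of 18 genes, and the FOXO1 targets farthest to the right, with 9 of 20.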

How the data were processed

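The authors removed low-quality and adaptor reads, aligned what remained by HISAT/Bowtie2 and quantified genes by RSEM (the submitters' processing notes name CASAVA 1.4 and Bowtie2). The genome build is not given in the sources used here. The deposited expected counts (29.8% not whole) are not normalized, the deposited FPKM values are scaled by the authors to effective length and depth, and the deposited length is RSEM's average over transcripts. Only genes with a value above 0 are listed. The methods name a HiSeq sequencer and the labels a BGIseq500 library kit.

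Expected counts were rounded and fitted in R 4.3.3 with edgeR 4.0.16 (filterByExpr by day, TMM, glmQLFit and glmQLFTest, all 9 samples, a coefficient per day). TMM factors were between 0.954 and 1.05 and the common coefficient of biological variation 0.0538. Missing genes were set to 0. Log2 CPM used a prior count of 2. Each standard error (SE) of edgeR was computed as the absolute log2 fold change divided by the square root of its F statistic. The 95% intervals apply a normal quantile to these errors, so they are narrower than intervals on the test's own distribution would be. RefSeq tables matched 19040 of 19094 gene IDs, and 26 symbols turned into dates were restored. Pairs of relatives were compared by exact permutation tests, two-sided in effect since the F statistic has no direction, with adjustment over the 3 pairs. Promoter windows came from RefSeq (GRCm38.p6) and held 8 of the 10 factors, without Ebf2 and Gata6. The steps were tested on simulated data.

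The factors and gene lists were chosen with earlier results of these data known. The text names the factors, for each list the genes with the 3 largest called changes and genes whose role explains the list, and for each called factor the 2 genes of nearest course. Some genes covered by this rule are not reported here. Alternatives were RLE size factors, library size alone, no filter, at least 10 counts in every sample, DESeq2 1.42.0, edgeR's exact test, limma 3.58.1 on log2(FPKM + 1) and log2(FPKM + 0.1), separate models, a replicate block and leaving out each sample.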

Additional observations from a re-analysis of the deposited data

How the results depend on the processing

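The counts of calls and the ratios of the pairs were compared over all alternatives. Of these values 251 were taken as unchanged, 12 moved by more than 1.5 times and 1 came to pass its threshold. A count within 1.5 times was taken as unchanged, so single factors could still gain or lose a call. The other values were mostly log2 fold changes of single factors. Of them 507 kept their direction and their call, and 3 were reversed. A further 8 no longer passed the 2-fold limit and 1 came to pass it. With limma on log2(FPKM + 1), 708 genes were called higher and 565 lower in the early phase, 224 and 136 in the late phase, and 753 and 528 over the whole process. With at least 10 counts in every sample, which tests fewer genes, 831 genes were called higher in the early phase, and 310 higher and 173 lower in the late phase. Among the commitment factors, 0 were called higher in the late phase with limma on either FPKM scale, where Gata2 had 0.74 (pseudocount 1) and 1 (pseudocount 0.1), and 2 were called higher over the whole process with limma on log2(FPKM + 1), without Zfp423 (0.86) and Gata6 (0.97). Over the whole process, leaving out single samples gave 3 to 5 factors called higher, as Zfp423 was not called without Day 0 replicate 2 or Day 8 replicate 1 and Ebf1 was called without Day 8 replicate 3.

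The early Zfp467 change was -0.04 with library size alone and between -0.03 and 0.07 with single samples left out, and the late Stat5b change was between -0.12 and 0, neither past the test as reported. The Stat5a to Stat5b log2 ratio was higher at day 8 than at day 0 by 0.09 to 0.27 when single samples were left out, passing the exact test only without Day 0 replicate 2. The cause of these shifts was not tested. Whether the numbers 1 to 3 pair the samples cannot be decided from the values. Deviations from the day means had correlations between -0.035 and 0.075 (mean 0.0307) for samples with the same number. For different numbers they were between -0.1 and 0.063 (mean -0.0154). With a replicate block 1287 genes were called higher and 1053 lower in the early phase, the counts of called factors stayed at 2 and 1, 1 and 0, and 4 and 1, and the adjusted p of the Ebf1 to Ebf2 and Gata2 to Gata6 ratios was 0.042. Depth limits Ebf2 most, with 83 to 86 counts per sample at day 0.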

Other observations

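Other transcription factors known in fat cell development, 28 of 30 tested, held 6 early calls each way (9.77% and 7.98% of all tested genes). Late calls were 2 each way (4.24% and 2.81%), and whole-process calls 4 higher and 3 lower (10.3% and 7.70%). Zbtb16 (PLZF), a zinc finger factor that responds to glucocorticoids, rose early with a log2 fold change of 6.53 (SE 0.14, adjusted p = 1.1e-15, edgeR), from 0.203 ± 0.101 to 18 ± 0.917 FPKM, and fell to 3.5 ± 0.114 FPKM at day 8 (SD, n = 3; log2 fold change -2.32, adjusted p = 5.5e-12, edgeR). Xbp1, a factor of the unfolded protein response, and Srebf1, a regulator of lipid synthesis, rose early with log2 fold changes of 1.87 and 1.35 (adjusted p = 1.1e-12 and 6e-13, edgeR). The stress factor Ddit3 fell from 120 ± 11.3 to 53.1 ± 3.06 FPKM and returned to 121 ± 5.25 (log2 fold change -1.12 early and 1.23 late, adjusted p = 5.8e-10 and 9.4e-10, edgeR), and Foxc2 fell early by 1.2 on the log2 scale (adjusted p = 6.9e-09, edgeR). The EBF2 partner gene Prdm16, which drives the brown fat programme, had at most 0.01 FPKM on average at any day and did not pass the filter on low counts.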
